A study of Homo sapiens with 2 samples.

Results

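Non-HOX homeobox transcription factor genes were examined in a map of JARID2 on the chromatin of MDA-MB-231, an established human triple-negative breast cancer line. The set was a list of 57 gene symbols from the LIM, sine oculis (SIX2 to SIX6), PAX, NKX, DLX, IRX, paired-like, EMX, MEIS, MSX and EN families. Its peaks were those that the authors' annotation named for one of these symbols, which took 68 of the 67071 peaks and 31 of the 57 genes. The rule used gene names and no measured value, but the list was drawn up with earlier results of these data known. The series held 1 library precipitated with a polyclonal JARID2 antibody and 1 input library of DNA that was not precipitated, both from untreated cells. Values come from the peak list of the JARID2 library, and those of the input were not analysed. With 1 ChIP library there was no replicate check and no test was made. Each fold enrichment, tag count and false discovery rate (FDR) was assigned by the authors' peak caller. How many reads the libraries held is unknown. All counts of genes describe this list and not a spread between samples.

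Homeobox genes encode transcription factors that bind DNA through a homeodomain and set the identity of body regions, organs and neuron types in the embryo. Some PAX proteins keep only a part of the homeodomain or, as PAX1 and PAX9, none, and bind through a paired domain. Many of these genes are silent in adult epithelium, and in embryonic stem cells many of them are held silent by the Polycomb repressive complex PRC2, which methylates histone H3 at lysine 27. JARID2 is an accessory subunit that helps bring PRC2 to CpG-rich promoters.

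The sequences just upstream of a few start sites are shown first, because CpG pairs are the feature most tied to Polycomb targeting and because the SIX2, LHX4 and PHOX2A genes carried the strongest peaks of the set. They are the 250 bases before a RefSeq start on GRCh38.p14, in lower case with each CpG pair in capitals. The peaks are on hg19, so a sequence is tied to a peak only through the gene's start, and whether the RefSeq start is that of the authors' transcript was not checked. SIX2 is at chr2:45009453-45009702 (minus strand), NKX3-2 at chr4:13544509-13544758 (minus strand), LHX4 at chr1:180230014-180230263 (plus strand) and PHOX2A at chr11:72244177-72244426 (minus strand). EN2 at chr7:155457879-155458128 (plus strand) and OTX2 at chr14:56810480-56810729 (minus strand), the first listed of its starts, are shown as members without a peak at the high and low end of CpG content.
SIX2: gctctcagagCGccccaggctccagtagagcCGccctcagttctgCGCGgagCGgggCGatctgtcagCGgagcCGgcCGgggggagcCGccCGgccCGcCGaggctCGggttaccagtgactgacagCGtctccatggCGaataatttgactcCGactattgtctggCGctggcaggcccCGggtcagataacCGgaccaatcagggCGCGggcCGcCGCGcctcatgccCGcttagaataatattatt
NKX3-2: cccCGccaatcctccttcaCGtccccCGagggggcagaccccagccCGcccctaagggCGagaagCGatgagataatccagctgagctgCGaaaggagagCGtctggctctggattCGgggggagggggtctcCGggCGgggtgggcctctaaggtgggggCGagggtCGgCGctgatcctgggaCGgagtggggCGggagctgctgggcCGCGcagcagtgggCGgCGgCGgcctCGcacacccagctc
LHX4: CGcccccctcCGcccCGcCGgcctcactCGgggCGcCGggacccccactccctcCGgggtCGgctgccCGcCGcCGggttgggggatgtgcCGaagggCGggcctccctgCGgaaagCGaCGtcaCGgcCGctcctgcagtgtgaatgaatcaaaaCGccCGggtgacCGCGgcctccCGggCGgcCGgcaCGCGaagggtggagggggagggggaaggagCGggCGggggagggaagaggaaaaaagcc
PHOX2A: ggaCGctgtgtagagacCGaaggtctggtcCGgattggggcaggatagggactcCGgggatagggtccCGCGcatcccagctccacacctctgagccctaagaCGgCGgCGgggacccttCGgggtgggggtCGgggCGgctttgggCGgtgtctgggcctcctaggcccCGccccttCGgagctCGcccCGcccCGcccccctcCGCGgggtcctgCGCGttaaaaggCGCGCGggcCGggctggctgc
EN2: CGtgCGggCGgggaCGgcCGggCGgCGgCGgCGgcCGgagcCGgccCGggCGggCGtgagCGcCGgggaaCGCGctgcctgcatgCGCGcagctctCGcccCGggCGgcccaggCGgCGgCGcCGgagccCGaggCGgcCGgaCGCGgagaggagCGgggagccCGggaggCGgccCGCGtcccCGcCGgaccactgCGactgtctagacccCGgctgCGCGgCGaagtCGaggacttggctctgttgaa
OTX2: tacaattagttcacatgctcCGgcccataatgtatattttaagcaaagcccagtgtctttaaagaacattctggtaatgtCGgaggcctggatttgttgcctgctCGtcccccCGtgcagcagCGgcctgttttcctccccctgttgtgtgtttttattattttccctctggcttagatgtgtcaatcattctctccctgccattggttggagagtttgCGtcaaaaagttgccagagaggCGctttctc
The 250 bases before SIX2 held 26 CpG pairs, those before PHOX2A 26, those before LHX4 30 and those before NKX3-2 22. EN2 held 45 and OTX2 7 in the windows printed, and neither gene was given a peak. Measured from the authors' transcript starts on hg19, the SIX2 and NKX3-2 peaks covered all 250 bases before the start. The LHX4 and PHOX2A peaks lay outside the 250 bases so placed. Those bases need not be the ones printed, since the RefSeq starts were not matched to the authors' starts.

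Peaks were given to these genes about as often as to other genes. A promoter peak, one whose annotation class lies within 3 kb of a transcription start site (TSS), was listed for 18 of the 57 members (31.6%), beside 33.1% of 20037 protein-coding genes. Any peak was listed for 31 members (54.4%), beside 56.3%. A distal peak, meaning any other class, was listed for 24 members (42.1%), beside 40.5%. Of the 31, 7 had promoter peaks alone, 11 had both kinds and 13 had distal peaks alone. The remaining 26 members had no peak in the list. At an FDR of at most 5%, 3 members (5.26%) had a peak, LHX4, SIX2 and PHOX2A, beside 3.01% of protein-coding genes. All 3 were promoter peaks, and 2.47% of protein-coding genes had such a peak at that limit. Of the 603 protein-coding genes with any peak at that limit, 495 had a promoter peak at it. By peaks, 22 of 68 (32.4%) were of the promoter class, beside 20.5% of all peaks and 29.6% of the peaks given to protein-coding genes. An FDR of at most 5% was given to 3 of 68 (4.41%), beside 1.24% of all peaks and 2.11% of the peaks given to protein-coding genes. It was given to 3 of the 22 promoter peaks (13.6%), beside 4.29% of all promoter peaks. Of the 46 distal peaks 0 reached it, beside 0.458% of all distal peaks. At an FDR of at most 20% there were 6 peaks of 5 members (8.82%), beside 4.15% of all peaks, and all 6 were promoter peaks. The shares of genes with any, a promoter or a distal peak lie near the background. The shares of peaks past the FDR limits are above it and rest on 3 and 6 peaks.

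**Figure D1:**
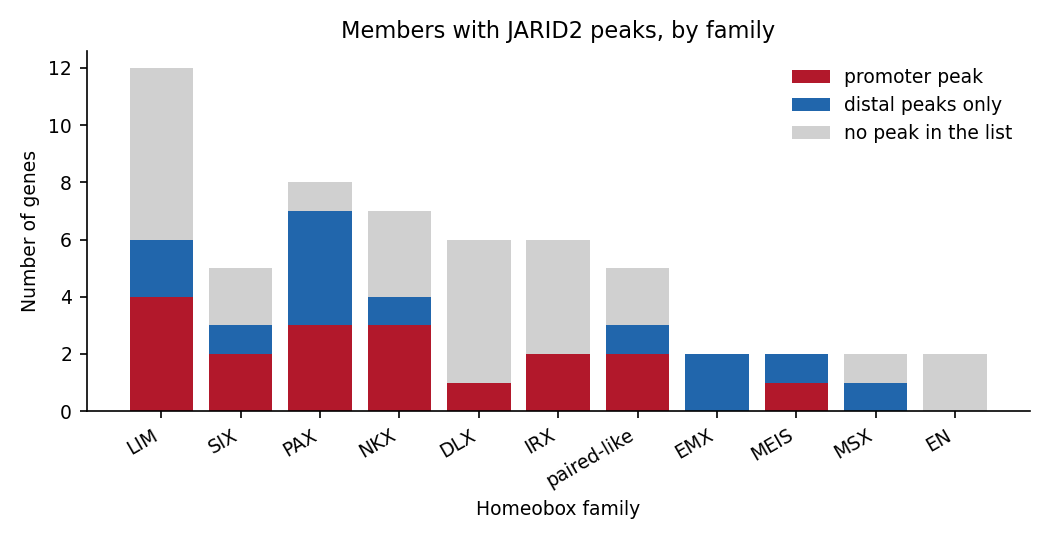
Number of genes (y axis) in each homeobox family (x axis), split into members with a promoter peak, members with distal peaks only and members with no peak in the list. PAX has 7 of 8 genes with a peak, DLX 1 of 6 and EN 0 of 2.

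The families differed in how many genes carried a peak. Among families of at least 5 genes PAX had the highest share and DLX the lowest. A peak was listed for 7 of 8 PAX genes, 6 of 12 LIM genes, 3 of 5 sine oculis genes, 4 of 7 NKX genes, 3 of 5 paired-like genes, 2 of 6 IRX genes and 1 of 6 DLX genes. Both EMX and both MEIS genes had one, as did 1 of 2 MSX genes, and neither EN gene did. The shares of 50% in LIM, 57.1% in NKX and 60% in sine oculis and paired-like genes lie near the 56.3% of all protein-coding genes. For promoter peaks alone the spread was narrower. They were listed for 4 of 12 LIM, 2 of 5 sine oculis, 3 of 8 PAX, 3 of 7 NKX, 2 of 6 IRX, 2 of 5 paired-like, 1 of 6 DLX and 1 of 2 MEIS genes, and for 0 of the 6 EMX, MSX and EN genes. The shares of 33.3% in LIM and IRX and 37.5% in PAX lie near the 33.1% of all protein-coding genes. PAX genes held 18 of the 46 distal peaks. No test of a difference between families was made.

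The promoter peaks of the set were spread over both sides of the start. Of the 22 promoter peaks, 7 overlapped the start of the listed transcript, 7 lay wholly upstream and 8 wholly downstream. The 7 overlapping peaks belonged to SIX2, IRX3, NKX2-3, NKX3-2, LHX9 and PAX8, the last with 2. The authors' class put 13 of the 22 within 1 kb (59.1%), beside 52.1% of all promoter peaks. The deposited distance was found to run to the near edge of the peak for transcripts on the plus strand and to the far edge for those on the minus strand, in all 63403 peaks of the list that did not overlap the start, within 1 bp. Measured to the near edge, PHOX2A (639 bp) and PAX6 (754 bp) also lay within 1 kb. No further member gained a promoter peak that way, while the share of protein-coding genes with one became 34.1%. Distances below are to the near edge unless they are named as the authors'.

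**Figure D2:**
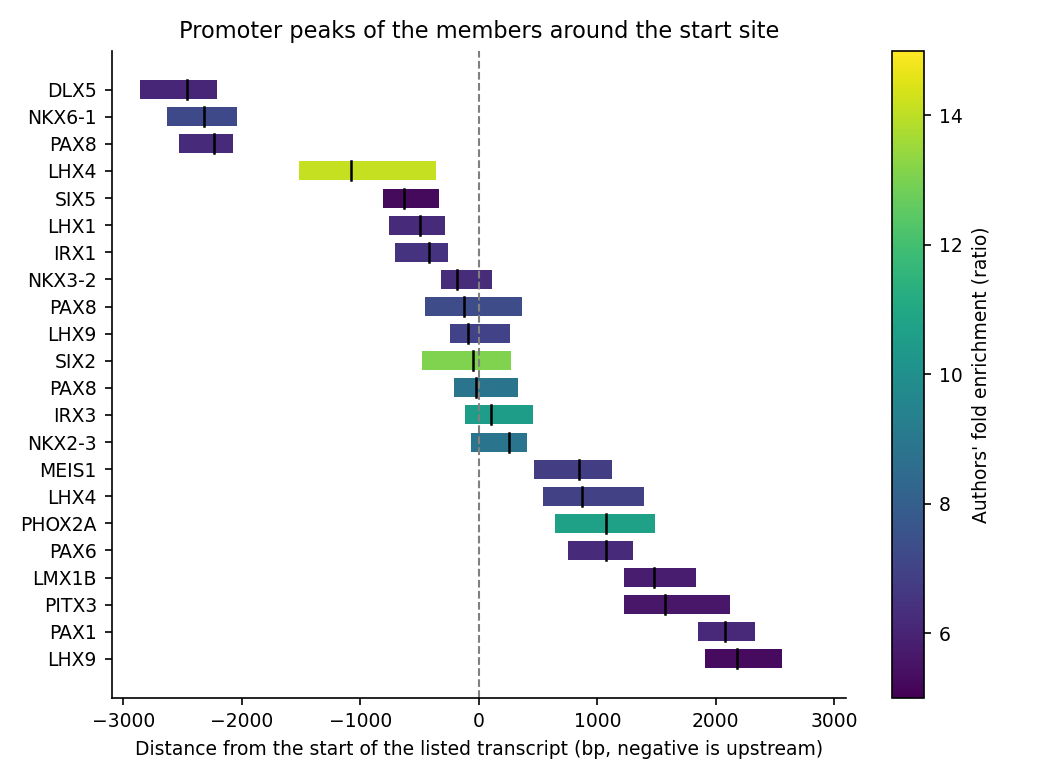
Extent of each of the 22 promoter peaks along the distance from the start of its listed transcript in bp (x axis, negative is upstream), 1 row per peak named by its gene. Colour is the authors' fold enrichment and the black tick is the summit. The LHX4 peaks lie on either side of the start without covering it, and the SIX2 peak covers it.

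LIM homeobox genes direct motor neuron, pituitary and limb identity, and the peak with the most tags and the highest fold of the set lay at one of them, LHX4, a regulator of pituitary development. That peak, on chromosome 1 (hg19, 180197903 to 180199060), held 53 tags (95% Poisson interval 39.7 to 69.3) and had a fold enrichment of 14.13 and an FDR of 0. Only 0.252% of all peaks had a fold enrichment as high. It ended 361 bp upstream of the LHX4 start, with its summit 1076 bp upstream (a relative position of -1076). A second LHX4 peak (180199977 to 180200831) began 556 bp downstream of that start and held 25 tags at 6.93-fold, with an FDR of 18.8%. The 916 bp between these peaks held the start itself. Farther upstream, LHX4 had distal peaks of 14 tags (6.0-fold) and 10 tags (4.34-fold), both with an FDR near that of the whole list's median of 44.2%, at 39.8% and 47.9%.

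The other LIM genes had only weak peaks. LHX9, which acts in gonad and limb development, had a peak over its start with 12 tags at 6.97-fold (FDR 45.4%) and another 1909 bp downstream with 16 tags at 5.31-fold (38.8%). A distal LHX9 peak, classed as downstream of the gene, held 15 tags at 5.09-fold (41.3%). LHX1, needed for head and kidney formation, had a promoter peak of 10 tags at 6.18-fold (48.0%) and 4 distal peaks between 14093 and 55135 bp upstream with 10, 14, 14 and 15 tags. All 4 distal LHX1 peaks lay in an exon or in introns of a gene that the list does not name, and the highest of them, at 7.06-fold, was the highest distal LIM peak. LMX1B, a limb and kidney regulator, had 1 promoter peak of 14 tags at 5.76-fold. LMX1A, its relative in dopamine neurons, had 3 distal peaks of 10, 10 and 12 tags, of which 1 lay in intron 6 of its 8 introns. LHX2 had 2 distal peaks with 10 and 15 tags and the low folds of 4.27 and 3.92. LHX3, LHX5, LHX6, LHX8, ISL1 and ISL2 had no peak in the list.

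SIX2, which keeps kidney progenitors undifferentiated, had the second highest peak of the set by fold enrichment, and the other sine oculis genes had weak peaks or none. The SIX2 peak on chromosome 2 (45236301 to 45237049) held 34 tags (95% Poisson interval 23.5 to 47.5) at 13.08-fold with an FDR of 1.68%, and its summit lay 47 bp from the start (a relative position of -47). SIX5, a gene beside the myotonic dystrophy locus, had a promoter peak of 13 tags at 5.24-fold and an FDR of 48.3%. SIX4, which acts in muscle and kidney, had 3 distal peaks of 9, 10 and 10 tags downstream of its start, 1 of them in a 3′ UTR, with folds of 6.46, 5.31 and 6.18. SIX3 and SIX6, the forebrain and eye members, had no peak in the list.

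PHOX2A and IRX3 followed, on either side of the 5% limit. PHOX2A, a regulator of autonomic neurons, had 40 tags (95% Poisson interval 28.6 to 54.5) at 10.7-fold on chromosome 11 (71950747 to 71951597), with an FDR of 3.98%. This peak lay inside the listed transcript, which is 2116 bp long, and began 639 bp downstream of its start. Its promoter class rests on that start, which was not matched to the RefSeq start of the printed window. IRX3, which patterns neural tube and heart, had 22 tags (95% Poisson interval 13.8 to 33.3) at 10.51-fold over its start on chromosome 16 (54319309 to 54319885), and its FDR of 5.11% fell just outside the limit. The Poisson intervals of these 2 tag counts overlap. PHOX2A had the larger count and the longer peak, at 851 bp against 577 bp, so that the tags per kb were 47.0 and 38.1.

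The other paired-like and IRX genes carried at most 1 or 2 weak peaks. PITX3, needed for midbrain dopamine neurons and the lens, had a promoter peak of 23 tags at only 5.6-fold (FDR 42.9%), 1226 bp downstream of the start. OTX1, a forebrain gene, had 1 distal peak of 14 tags at 8.83-fold and an FDR of 25.4%, classed as downstream of the gene. IRX1 had a promoter peak of 12 tags at 6.46-fold (FDR 39.5%) and a distal peak of 10 tags at 5.25-fold (48.0%). PITX1 and OTX2, IRX2, IRX4, IRX5 and IRX6 had no peak in the list.

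**Figure D3:**
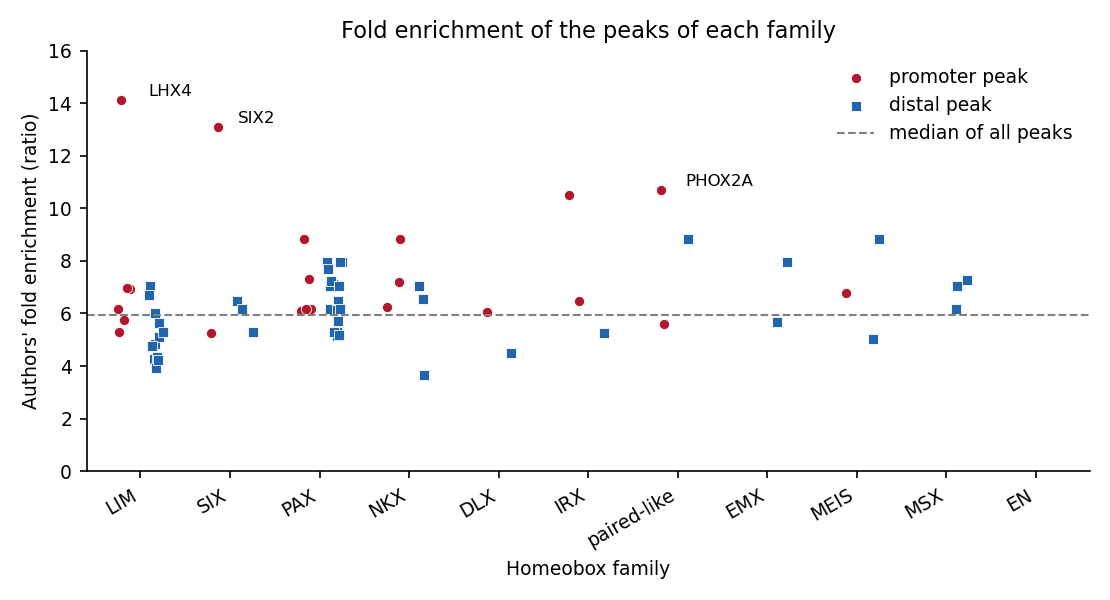
The authors' fold enrichment (y axis, a ratio) of each of the 68 peaks by family (x axis), promoter peaks as red circles and distal peaks as blue squares. The dashed line is the median of all peaks (5.95). LHX4 at 14.13, SIX2 at 13.08 and PHOX2A at 10.7 are the 3 peaks with an FDR of at most 5%.

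The PAX genes had many peaks of low height. They held 23 of the 68 peaks, 5 promoter and 18 distal, and 0 of them reached an FDR of 5%. PAX8, a thyroid and kidney regulator, had 8 peaks, the most of any member. Its 3 promoter peaks were named for transcripts that start 37171 to 58473 bp from the start of the longest PAX8 transcript listed, and 2 of them overlapped such a start while the third lay 2078 bp upstream. They held 25 tags at 7.3-fold (chromosome 2, 113998994 to 113999814, FDR 19.0%), 14 tags at 8.83-fold (35.1%) and 10 tags at 6.18-fold (47.0%). The 8.83 was the highest promoter fold among the PAX genes. The 5 distal PAX8 peaks held 9 to 13 tags, and 2 of them lay in an intron and an exon of PAX8-AS1, the antisense gene at this locus.

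PAX6, the eye and pancreas regulator, had a promoter peak of 12 tags at 6.18-fold, 754 bp downstream of the start of a transcript 954 bp long. That start lies 23835 bp from the start of the longest PAX6 transcript listed. The distal PAX6 peaks held 24 tags at 7.23-fold (chromosome 11, 31849549 to 31850361, FDR 23.9%) and 10 tags at 7.06-fold. Both lay in intron 1 of RCN1, the neighbouring gene. The peak of 24 tags held the most tags of any distal peak in the set. PAX1, a skeletal gene, had 10 tags at 6.1-fold in a promoter and 12 tags at 7.95-fold (FDR 34.0%) in a distal peak. Its promoter peak was named for a transcript starting 2611 bp from the start of the longest PAX1 transcript listed. PAX2, a kidney and optic nerve regulator, had 5 distal peaks of 10 to 13 tags, 3 of them in its intron 1 and the highest at 7.95-fold. PAX7, which marks muscle stem cells, had 3 peaks, all inside its own introns, with 12, 10 and 10 tags and a highest fold of 7.95 again. These PAX1, PAX2 and PAX7 peaks shared the highest distal fold of the family. PAX3 and PAX5, regulators of neural crest and of B cells, had 1 distal peak each, with 10 tags at 7.06-fold and 17 tags at 5.28-fold. PAX9 had none in the list.

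NKX and DLX genes had no peak with an FDR below 30%. NKX2-3, a gut and spleen gene, had 12 tags at 8.83-fold over its start (chromosome 10, 101292627 to 101293096), with an FDR of 38.8%, and a distal peak of 16 tags at 6.55-fold (33.6%). NKX3-2, a cartilage gene, had 15 tags at 6.24-fold over its start (chromosome 4, 13546561 to 13546996, FDR 42.5%). NKX6-1, a beta cell and motor neuron gene, had 13 tags at 7.2-fold in a promoter and 20 tags at 3.66-fold in a distal peak 39436 bp downstream. Those 20 tags gave the lowest fold of the set. Fold enrichment is a ratio to the caller's background, so peaks of equal tags can differ in it. NKX6-2 had 1 distal peak of 10 tags at 7.06-fold, and NKX2-1, NKX2-2 and NKX2-5 had none under their own names. Of the DLX genes, which lie in neighbouring pairs and act in limb, jaw and forebrain, DLX5 alone was named, with 16 tags at 6.06-fold in a promoter peak 2209 bp upstream (FDR 47.2%) and 10 tags at 4.49-fold in a distal peak.

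Of the small families, MEIS1 had 13 tags at 6.77-fold in a promoter peak and 12 tags at 5.03-fold in a distal one. MEIS2, like MEIS1 a cofactor of HOX proteins, had 12 tags at 8.83-fold in intron 3 of 12 (FDR 37.1%). EMX1 and EMX2, cortex and kidney genes, had 1 intron peak each, with 10 tags at 5.66-fold and 15 tags at 7.95-fold, the EMX2 peak inside its opposite-strand gene EMX2OS. MSX2, a skull and limb gene, had 3 distal peaks of 14, 10 and 13 tags, all upstream and at least 13106 bp from its start, with a highest fold of 7.28. MSX1, EN1 and EN2 had no peak in the list.

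Promoter peaks of the set held more tags than its distal peaks, as was true over the whole list. The median was 14 tags (range 10 to 53) over 22 promoter peaks and 10.5 tags (9 to 24) over 46 distal peaks, beside 14 and 12 over all promoter and distal peaks. At least 20 tags were held by 7 of the 22 promoter peaks (31.8%), beside 27.4% of all promoter peaks, and by 2 of the 46 distal peaks (4.35%), beside 11.5% of all distal peaks. At least 25 tags were held by 5 promoter peaks (22.7%), beside 16.5% of all promoter peaks. Of these, 2 were at LHX4 and 1 each at SIX2, PHOX2A and PAX8. Of the distal peaks of the set 0 held as many, beside 4.37% of all distal peaks. Promoter peaks were also wider, with a median of 586.5 bp against 461.5 bp, and the tags per kb were nearly equal, at 25.6 and 25.2. The median fold enrichment was 6.62 for promoter and 6.16 for distal peaks of the set, beside 5.92 and 5.99 over the list.

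**Figure D4:**
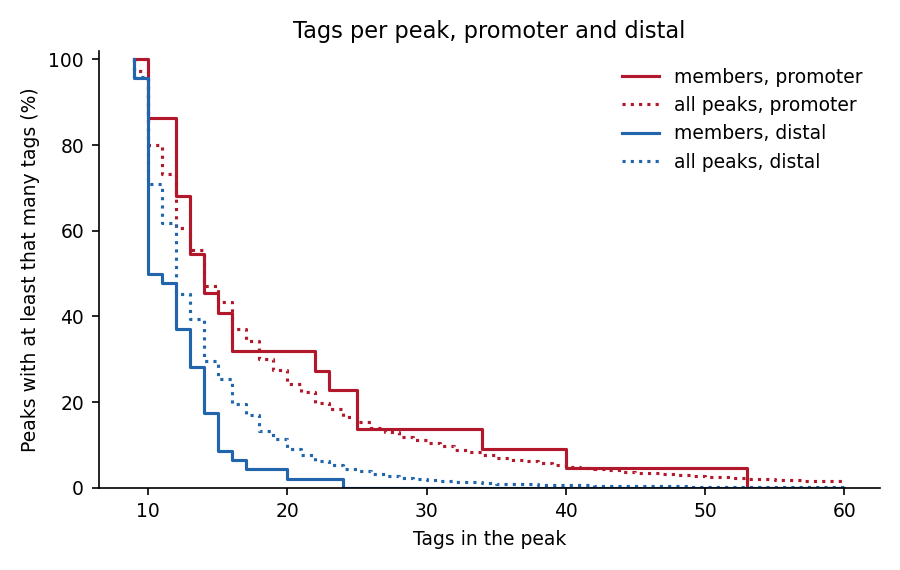
Percent of peaks with at least a given number of tags (y axis) against tags in the peak (x axis), for promoter (red) and distal (blue) peaks of the set (solid) and of the whole list (dotted). The distal curve of the members ends at 24 tags and their promoter curve at 53.

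Most of the values rest on few tags. Up to 10 tags were held by 26 of the 68 peaks (38.2%), beside 27.2% of all peaks, and a peak of 10 tags has a 95% Poisson interval of 4.80 to 18.4. Fold enrichment took repeated values: the 4 most frequent in the list, 5.3, 6.18, 7.06 and 7.95, together made up 19 of the 68 (27.9%) and 32.2% of the list. Folds of 7.06 shared by LHX1, PAX3, NKX6-2 and MSX2, for example, do not rank these genes. Nor does the fold of 8.83, another repeated value, rank PAX8, NKX2-3, OTX1 and MEIS2, which share it. Over all 68 peaks the median was 6.18-fold and 12 tags, beside 5.95 and 12 for the list, and 50 peaks (73.5%) had an FDR above 40%, beside 70.3%. The 3 peaks with an FDR of at most 5% held 127 of the 972 tags in the set's peaks (13.1%).

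The distal peaks lay on both sides of the genes, with more on the upstream side. By the authors' sign, 29 of 46 (63.0%) were upstream of the start, beside 48.4% of all distal peaks. LIM genes gave 10 of their 12 and MSX2 3 of 3, and all 3 SIX4 peaks were downstream. The median distance of the set's distal peaks by the authors' measure was 19.0 kb, beside 21.1 kb over the list. Over distal peaks given to protein-coding genes, as all members are, it was 15.2 kb. The farthest of the set lay 97113 bp upstream of PAX2. Of the 68 peaks, 24 were intergenic (35.3%) and 17 intronic (25%), beside 36.6% and 37.2% of the list. Of the peaks given to protein-coding genes, 19.3% were intergenic and 43.7% intronic. Beside these the set held a larger intergenic and a smaller intronic share. The 19 distal peaks in introns or exons were split between the member's own gene, with 10 peaks in 6 members, and another gene, with 9 peaks named for LHX1, PAX6, PAX8 and EMX2, by the gene given in the authors' class. Of these 9, the 2 PAX8 peaks also lay within PAX8 transcripts of the list and so in both genes, and 7 lay outside the listed transcripts of the member they are named for. The name of a peak is that of the nearest start.

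CpG content upstream of the starts overlapped widely between members with and without a promoter peak. RefSeq windows were found for 42 of the 57 members, and the count of CG pairs (the same on both strands) was taken as the median over a gene's starts. The RefSeq starts were not matched to the starts that promoter peaks were named for, so a window need not lie near its gene's peak. The 13 members with a promoter peak had a median of 23 CpG pairs in 250 bases (range 11 to 38), the 11 with distal peaks alone 19.5 (11 to 33) and the 18 without a peak 23.5 (5.5 to 45). The 15841 protein-coding genes with such a window had a median of 17, and the other values for protein-coding genes in this paragraph are also over them. At least 20 pairs were found in 8 of 13, 5 of 11 and 10 of 18 members, beside 41.4% of protein-coding genes. Over protein-coding genes the median was 19 for those with a promoter peak, 15 for those without and 23 for those with a promoter peak at an FDR of at most 5%. The 6-letter core TAATTA, which homeodomains bind and which reads the same on both strands, was found before 3 of the 42 members (7.14%), EMX2, MSX2 and NKX2-1, beside 4.21% of protein-coding genes, and before 0 of the 13 with a promoter peak. A match is a string in this window and not a bound site.

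**Figure D5:**
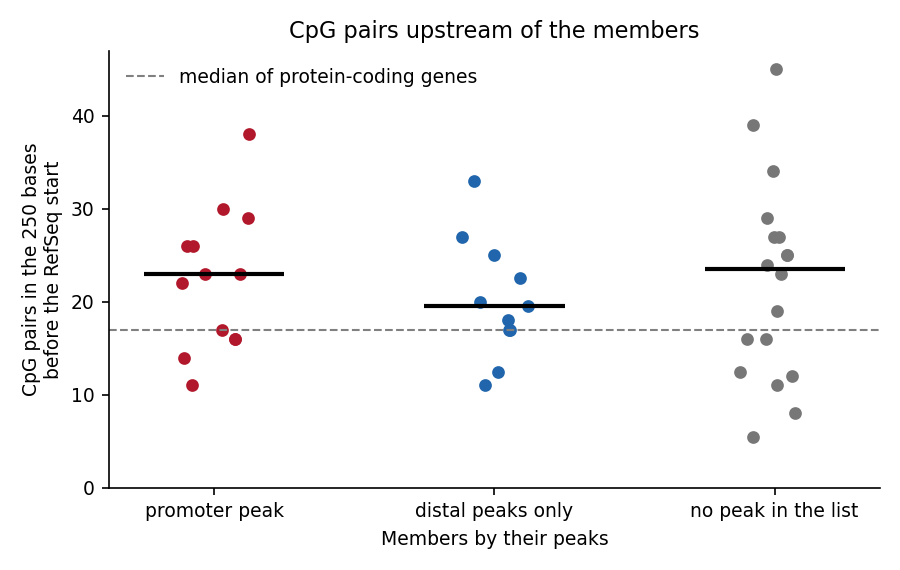
CpG pairs in the 250 bases before the RefSeq start (y axis, median over a gene's starts) for 42 members, grouped by their peaks (x axis). Points are genes, black bars are medians (23, 19.5 and 23.5) and the dashed line is the median of protein-coding genes with a RefSeq window (17). The 3 groups overlap over most of their range.

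Other homeobox genes outside the HOX clusters gave a similar picture with fewer genes past the FDR limit. Of 118 such genes (POU, TALE, further paired-like and NK-like genes and others), 72 (61.0%) had a peak, 32 (27.1%) a promoter peak and 1 (0.847%) a peak at an FDR of at most 5%. Over protein-coding genes these shares were 56.3%, 33.1% and 3.01%. That gene was ZEB2, a zinc finger homeobox repressor of epithelial genes, with 59 tags at 13.58-fold in a 3′ UTR and 66 tags at 9.71-fold in an exon, both with an FDR of 0. Both ZEB2 peaks held more tags than any member peak, of which the largest held 53. Among the 3 members past the same limit each strong peak was of the promoter class, as were 590 of the 834 peaks past it in the whole list. The remaining genes of the families studied included 27 paired-like genes, of which 16 had a peak and 1 a promoter peak, and 7 NKX genes, of which 2 had a promoter peak.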

How the data were processed

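JARID2 ChIP-seq of MDA-MB-231 cells was used as 1 deposited peak list on hg19, 1 library without replicate. Per the submitters' processing notes, the tools were ChIPseeker, MACS, MACS2, Bowtie 0.12.8 and bcl2fastq. Thresholds, the duplicate filter and the use of the input were not given in the sources used here. Per the file headers, the authors deposited a whole-number tag count per peak (not normalised), a linear fold enrichment ratio over the caller's background, an FDR in percent, and each peak's nearest transcript and class. A further deposited score has an unreadable header (minimum 30) and was not used.

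Peaks were taken by symbol (0 further peaks by synonym), in Python 3.11.15 with pandas 2.3.3 and scipy 1.17.1. Backgrounds used the 20037 protein-coding genes that RefSeq lists on GRCh38.p14, matched by symbol or unique synonym. Intervals are exact Poisson or Clopper-Pearson at 95% and cover counting error only, since PCR copies are not independent molecules. Counting was tested on simulated data. Expression is not measured, so the cell line was not checked against markers. The members, families and lists were chosen with earlier results of these data known. Every member is accounted for; full values were given by rule for members past an FDR of 5%, family leaders, members with most peaks and the small families, and positions only for the peaks singled out. Alternatives were FDR and fold limits, a reach of 1 kb, merging of peaks and assignment by transcript span. The near-edge distance and leaving out PAX8 or LHX4 were added after the data were examined.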

Additional observations from a re-analysis of the deposited data

How the results depend on the processing

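FDR limits of 1% and 20% left few members, all through promoter peaks. At an FDR of at most 5%, 590 of the 834 peaks in the whole list were of the promoter class. With an FDR limit of 1% 1 member had a peak, with 20% 5 members did, and the 6 peaks kept at 20% gave 5 members with a promoter peak, a promoter share of 100%, a median fold of 10.6 and a median of 29.5 tags. Among peaks in the top 25% by fold 8 members had a promoter peak and the median fold was 7.7. Within 1 kb by the authors' class 11 of the 57 members had one, beside 22.3% of protein-coding genes, and the promoter share was 19.1%. By the near edge of the peak 13 members had one and the share was 22.1%. The share of all genes was not taken at that near-edge reach, at the FDR limits of 1% and 20% or for the top 25% by fold. Those counts therefore have no background beside them. Assignment by listed transcript spans extended by 3 kb, which drops intergenic peaks by construction and has no span for members without a peak, gave a promoter share of 67.4%. Of 37 alternative values, 26 stayed within the interval of the reported value or within 1.5 times its count, among them all 10 without PAX8 or LHX4 and all 5 with neighbouring peaks merged. Such settings could move the values little: merging left 66 of the 68 peaks, and the others each dropped 1 gene. Leaving out LHX4 still lowered the members at an FDR of at most 5% from 3 to 2, which the 1.5-fold tolerance counted as unchanged. The promoter share of 32.4% has a 95% Clopper-Pearson interval of 21.5 to 44.8%. No paired analysis was possible because each group held 1 library. The number of tags limits each peak, and library depth is unknown.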

Other observations

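Some peaks at these genes carry another name in the list. At NKX2-1, a thyroid and lung regulator that was given no peak itself, its antisense gene NKX2-1-AS1 had a peak over its start with 26 tags at 5.06-fold (chromosome 14, 36987742 to 36988796, FDR 35.6%) and a second with 12 tags at 4.98-fold. PAX8-AS1 had peaks of 10 tags at 5.3-fold and 12 tags at 8.83-fold, and EMX2OS 1 of 10 tags at 5.3-fold. Inside the introns of members, 5 more peaks had other names. They were in intron 6 of PAX3 (10 and 9 tags, named for CCDC140), intron 3 of PAX5 (20 tags at 7.15-fold, MIR4476), intron 9 of MEIS1 (14 tags at 7.06-fold) and intron 5 of LMX1A (12 tags at 4.63-fold). A further 4 peaks inside listed member transcripts were named for other genes, 1 each at LMX1A (10 tags), LMX1B (11 tags), PAX8 (11 tags) and SIX5 (16 tags at 4.71-fold), and 3 more lay within 3 kb of IRX1 or SIX5. Members without a peak have no listed transcript and were searched only by antisense names. None of these 17 peaks had an FDR of at most 5%, the lowest being 29.4%. ChIP reads do not mark strand, so a peak at a sense and antisense pair cannot be assigned to either gene.

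The far-edge distance on the minus strand moves the promoter class of the list. Of 30777 minus-strand peaks off the start, 4471 are of the promoter class, and 5229 have their near edge within 3 kb, 758 more. On the plus strand 5625 peaks are of the class and the same number lie within 3 kb. Within 1 kb the minus-strand class holds 1030 peaks off the start against 2231 by the near edge. Among the peaks of the homeobox members 0 were gained within 3 kb.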
